A study of Mus musculus with 29 samples.

Results

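The 10 genes described here mark the unfolded protein response and the integrated stress response in mouse liver: Atf4, Ddit3, Trib3, Asns, Chac1, Hspa5, Xbp1, Herpud1, Dnajb9 and Creld2. They are known markers of these pathways and were chosen by name, with earlier results of these data known, from 22180 genes with a named row on the arrays. For each gene the row with the highest mean was taken. All 10 exceeded a log2 value of 5 in all 29 arrays, and all 10 were among the 14699 genes tested. Over the arrays the log2 values ran, for example, from 5.58 to 6.58 for Chac1 and from 10.52 to 11.99 for Herpud1. Levels of different genes rest on different probes and were not compared with each other.

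Livers came from male C57BL/6N mice aged 8 to 10 weeks, fed a standard diet. Every array title carries the tag wt, for wild type. In the ligated animals (BDL) the common bile duct was tied off outside the liver, which stops the flow of bile into the gut, and sham animals had the operation without the ligation. BDL livers were taken at days 1, 3, 7 and 21, with 5 mice on each day, and sham livers at day 1 (3 mice), day 3 (2 mice) and day 7 (4 mice). No sham group of day 21 was among the samples analysed, so day 21 was set against sham at day 7, and time and ligation cannot be told apart there. Whole liver tissue was profiled with 1 array per mouse. A value is therefore an average over all cells of the liver, and fewer cells of a type and less RNA per cell cannot be told apart. A difference of 1 in the log2 values given below is a doubling.

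Cells of the liver make and export most plasma proteins, and these enter the endoplasmic reticulum (ER) to be folded. When unfolded protein gathers there, the sensors IRE1, PERK and ATF6 raise the output of ER chaperones and of the machinery that removes misfolded protein, which is called the unfolded protein response. PERK also phosphorylates the translation factor eIF2, as do kinases that sense amino acid shortage, double-stranded RNA or heme deficiency. General translation then slows while the transcription factor ATF4 is made, and its targets form the integrated stress response. Hspa5, Xbp1, Herpud1, Dnajb9 and Creld2 stand here for the ER arm. Atf4, Ddit3, Trib3, Asns and Chac1 stand for the ATF4 arm. Much of this control acts on splicing of Xbp1 RNA, on phosphorylation and on translation. The gene-level rows do not separate spliced from unspliced Xbp1.

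Promoter sequences of the members show which of them carry, near the start site, the short elements known for these arms. The table of RefSeq promoter windows (assembly GRCm38.p6) held all 10 genes, each with 250 bases before and 50 bases after the start. For 3 motifs both strands were searched. The ER stress response element, known as a site for ATF6 together with NF-Y, was spelled CCAAT and CCACG with any 9 bases between them. It occurred in 39 of 32851 windows (0.119%), among them those of Hspa5, at positions -65 to -47, and Creld2, on the opposite strand at -126 to -108. The shorter second ER element, ATTGG and CCACG with 1 base between them, shares its last 5 letters with the first. It occurred in 12 windows (0.0365%), among them that of Herpud1 at -52 to -42. The core of the C/EBP-ATF element, through which ATF4 is known to act, was spelled TGATGNAA and occurred in 1304 windows (3.97%). It was found in Asns at -23 to -16, in Chac1 on the opposite strand at -193 to -186, in Herpud1 on the opposite strand at -112 to -105 and in Trib3 on the opposite strand at 15 to 22, after the start. None of the 3 spellings was in the windows of Atf4, Ddit3, Xbp1 or Dnajb9, which says only that these letters are not in this window.

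The stretches below show each printed match in capitals, 5′ to 3′ on the strand of the gene. Hspa5 (chr2:34771940-34772089, plus strand), Creld2 (chr15:88819496-88819645, plus strand) and Herpud1 (chr8:94386279-94386428, plus strand) are given for the last 150 bases before the start. Dnajb9 (chr12:44210069-44210218, minus strand) is given over the same stretch because its group means spanned the widest range over all 29 arrays. Chac1 (chr2:119351032-119351101, plus strand) and Asns (chr6:7693210-7693279, minus strand) are given for 70 bases around or next to the C/EBP-ATF core.
Hspa5: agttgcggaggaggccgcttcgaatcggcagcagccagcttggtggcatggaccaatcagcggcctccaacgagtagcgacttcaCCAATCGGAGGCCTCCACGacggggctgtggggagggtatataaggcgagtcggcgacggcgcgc
Creld2: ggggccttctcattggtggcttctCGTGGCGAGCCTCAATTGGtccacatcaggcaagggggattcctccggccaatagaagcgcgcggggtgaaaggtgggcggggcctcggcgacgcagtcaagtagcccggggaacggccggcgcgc
Herpud1: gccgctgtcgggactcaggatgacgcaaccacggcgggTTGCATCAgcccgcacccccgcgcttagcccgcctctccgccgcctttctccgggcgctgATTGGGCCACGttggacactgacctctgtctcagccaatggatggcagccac
Dnajb9: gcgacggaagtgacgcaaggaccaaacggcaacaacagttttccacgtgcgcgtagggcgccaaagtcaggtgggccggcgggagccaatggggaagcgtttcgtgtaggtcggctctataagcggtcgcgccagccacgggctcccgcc
Chac1: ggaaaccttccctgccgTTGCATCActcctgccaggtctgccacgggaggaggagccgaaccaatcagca
Asns: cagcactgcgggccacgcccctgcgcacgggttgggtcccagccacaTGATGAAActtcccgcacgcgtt

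Of the 29 arrays, 4 stood apart, and all 4 were of day 1: sham replicates 1 and 3, and BDL replicates 2 and 3. The SD of log2 values over all rows was 2.033 to 2.044 in these arrays and 2.088 to 2.178 in the other 25. Mean values of 73 small nucleolar RNA genes were 8.88 to 9.33 in them and 7.62 to 8.41 elsewhere. They are called the low-spread arrays below. A term for them passed an adjusted p of 0.05 in limma, a linear model fitted to all genes tested, for 3734 of 14699 genes (25.4%). Among the members the term passed for Dnajb9, which was lower by 1.05 ± 0.17 (SE) log2 units in the low-spread arrays (adjusted p = 7.75e-05), and for Xbp1, lower by 0.54 ± 0.18 (adjusted p = 0.0293). The low-spread arrays made up 2 of 3 sham and 2 of 5 BDL arrays of day 1. The day 1 differences of Dnajb9, Creld2 and Hspa5 and the day 1 counts of several gene lists are therefore given with and without them.

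The hepatocyte genes, which define most of the tissue, were bright in every group. The mean of 10 hepatocyte markers lay between 12.06 and 12.44 in all 29 arrays. Of these, Ttr, the transthyretin gene, was called lower in limma at days 1, 3 and 7 (-0.32 at day 1), and Serpina1e, a serpin gene, at day 3 (-1.05), day 7 (-1.55) and day 21 against sham at day 7 (-2.77). The other 8 were not called in these comparisons. The mean of 9 cholangiocyte markers lay between 5.07 and 5.59 in sham arrays and between 5.39 and 7.02 in BDL arrays.

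One day after ligation the ER arm was higher than in sham livers for 3 of its genes: Dnajb9 2.27-fold, Creld2 2.03-fold and Hspa5 1.46-fold. None of the ATF4 arm passed at day 1, and no member was lower. Among all genes tested, 8.52% were called higher and 4.80% lower. Of the 10 members 3 were called, 7 had an unadjusted p under 0.05 (25.9% of all genes did), and the median log2 difference was 0.45, against 0.02 over all genes. The first comparison asks how the pathway stood on the day after the duct was closed.

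Dnajb9 encodes an ER co-chaperone (ERdj4) that works with BiP and restrains IRE1. Its log2 values in the day 1 sham arrays were 7.65, 9.18 and 7.60, and in the day 1 BDL arrays 9.34, 8.87, 8.87, 9.50 and 10.05. Sham replicates 1 and 3 were the lowest of all 29 arrays, and sham replicate 2 lay inside the BDL range, so the groups overlapped. The difference was 1.19 ± 0.26 (SE) on the log2 scale (limma, adjusted p = 0.00246). The lowest sham values and the lowest BDL values were all from low-spread arrays. Among the low-spread arrays, Dnajb9 was 7.60 and 7.65 in sham and 8.87 in both BDL arrays. Among the others, it was 9.18 in the single sham array and 9.34 to 10.05 in 3 BDL arrays. Without the low-spread arrays the difference was 0.45 (adjusted p = 0.402), and against all 9 sham arrays as a single control group it was 0.52 (adjusted p = 0.128). The call also ended when the spread was taken from the compared groups alone (adjusted p = 0.0964). It held in 15 of 18 alternatives, among them a term for the low-spread arrays. It also held on leaving out any single array (limma, highest adjusted p = 0.0422). Dnajb9 in sham at day 1 was also 0.92 ± 0.27 below sham at day 7 (limma, adjusted p = 0.0521), where its values were 8.91, 8.95, 9.27 and 9.09. The single day 1 sham array outside the low-spread set, at 9.18, lay within the range of these values. Only the low-spread sham arrays, at 7.65 and 7.60, lay below it.

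Creld2 encodes an ER-resident protein that is induced with the chaperones. It stood at 7.81, 9.0 and 8.52 in sham at day 1 and at 9.18, 8.85, 9.65, 9.85 and 9.80 in BDL at day 1. A single BDL array, replicate 2, lay below the highest sham array. The difference was 1.02 ± 0.26 (limma, adjusted p = 0.00889). It was 0.60 without the low-spread arrays, where a single sham array remains, and the call ended. Within the low-spread arrays alone it was 1.09 and was not called either (limma, adjusted p = 0.111). Without sham replicate 1 it was 0.70 (limma, adjusted p = 0.125). With the spread taken from the compared groups alone it was 1.02 (limma, adjusted p = 0.0679). The call for Creld2 held in 14 of 18 alternatives, among them a term for the low-spread arrays.

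Hspa5 encodes BiP, the main chaperone of the ER lumen, which holds the stress sensors inactive. It stood at 9.04, 9.59 and 9.06 in sham at day 1 and at 9.68, 9.44, 9.76, 9.98 and 10.03 in BDL. As for Creld2, only BDL replicate 2 fell below the highest sham array. The difference was 0.54 ± 0.17 (limma, adjusted p = 0.0291), and 0.44 ± 0.16 (adjusted p = 0.0591) with a term for the low-spread arrays. Without these arrays it was 0.30 (adjusted p = 0.603). Leaving out sham replicate 1 or 3, or BDL replicate 4 or 5, also ended the call for Hspa5, with values of 0.45 to 0.49. The call held in 10 of 18 alternatives.

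Herpud1, whose protein sits in the ER membrane and takes part in the removal of misfolded proteins, was the only member whose day 1 arrays did not overlap. Over all genes 7.70% had all BDL arrays above all sham arrays. Its sham values were 11.54, 11.59 and 10.98, and its BDL values 11.72, 11.67, 11.74, 11.69 and 11.94. The difference of 0.38 ± 0.18 did not pass (limma, adjusted p = 0.179). Xbp1, the transcription factor gene whose RNA is spliced by IRE1, ranged from 9.35 to 10.26 in sham and from 9.95 to 10.70 in BDL. Its difference of 0.45 ± 0.21 did not pass either (limma, adjusted p = 0.167). Among the low-spread arrays, Xbp1 was 9.35 and 9.70 in sham and 9.95 and 9.96 in BDL. Among the others, it was 10.26 in the single sham array and 10.19 to 10.70 in BDL.

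In the ATF4 arm, the differences at day 1 were spread from near 0 to 0.52. Atf4 was 7.75, 7.88 and 8.10 in sham and 7.88, 8.32, 8.36, 8.69 and 8.30 in BDL, a difference of 0.40 ± 0.17 (limma, adjusted p = 0.118). Ddit3, which encodes the transcription factor CHOP, was 6.76, 6.56 and 6.58 in sham and 6.90, 6.64, 7.74, 7.53 and 6.61 in BDL, a difference of 0.45 ± 0.19 (adjusted p = 0.124). The BDL mice were uneven: replicates 3 and 4 stood at 7.53 or more, while replicates 2 and 5 stood within the sham range. One of these high arrays, replicate 3, was a low-spread array and the other was not. Against all 9 sham arrays, Atf4 was 0.34 higher (adjusted p = 0.0469) and Ddit3 0.48 higher (adjusted p = 0.0142).

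Trib3, a pseudokinase gene under ATF4 and CHOP, differed by 0.22 ± 0.22 (limma, adjusted p = 0.580), with a 95% interval of -0.23 to 0.68. Asns, the asparagine synthetase gene, differed by 0.52 ± 0.32 (adjusted p = 0.323, interval -0.14 to 1.18). Chac1 encodes an enzyme that breaks down glutathione. Its means were 6.30 in both groups, with an interval of -0.37 to 0.36 for the difference.

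**Figure D1:**
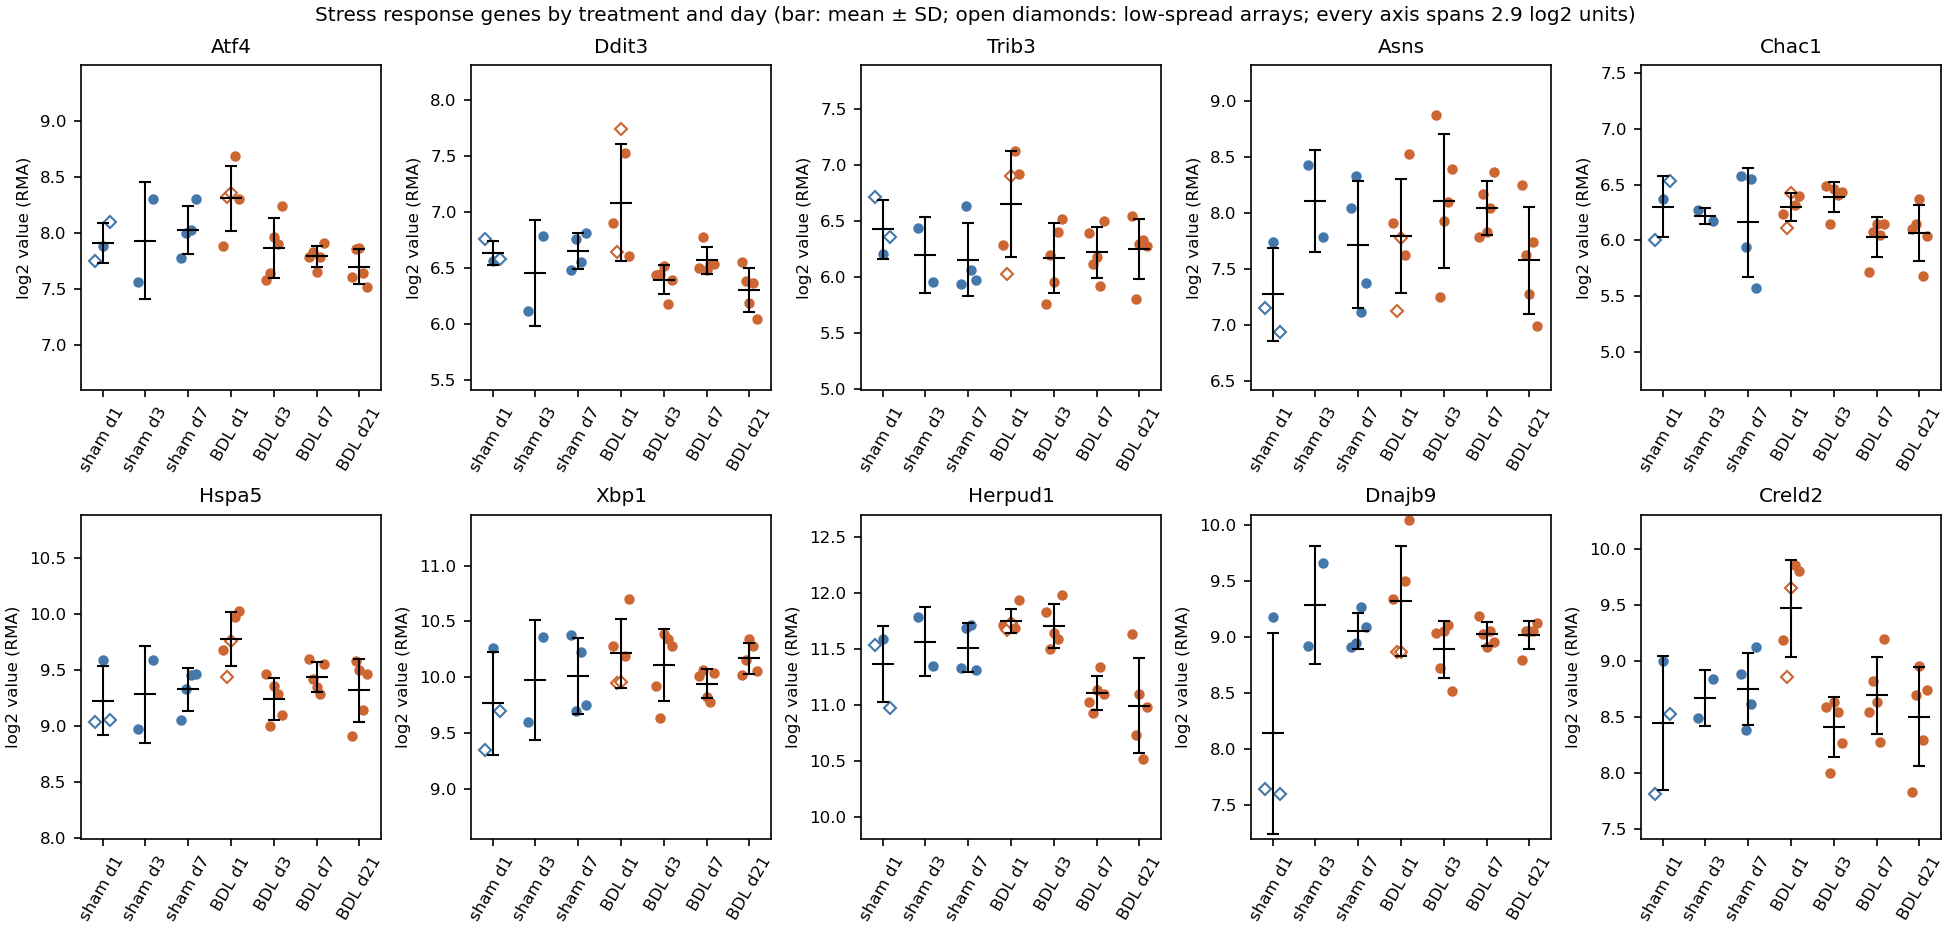
Log2 values of the 10 genes in 29 livers, grouped by treatment (sham in blue, BDL in orange) and day; each point is 1 array, bars give the mean ± SD, and open diamonds are the 4 low-spread arrays. Creld2 and Hspa5 peak in BDL at day 1, Herpud1 in BDL is lower at day 7 than at day 3, and the 2 lowest Dnajb9 values, 7.60 and 7.65, are low-spread sham arrays.

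**Figure D2:**
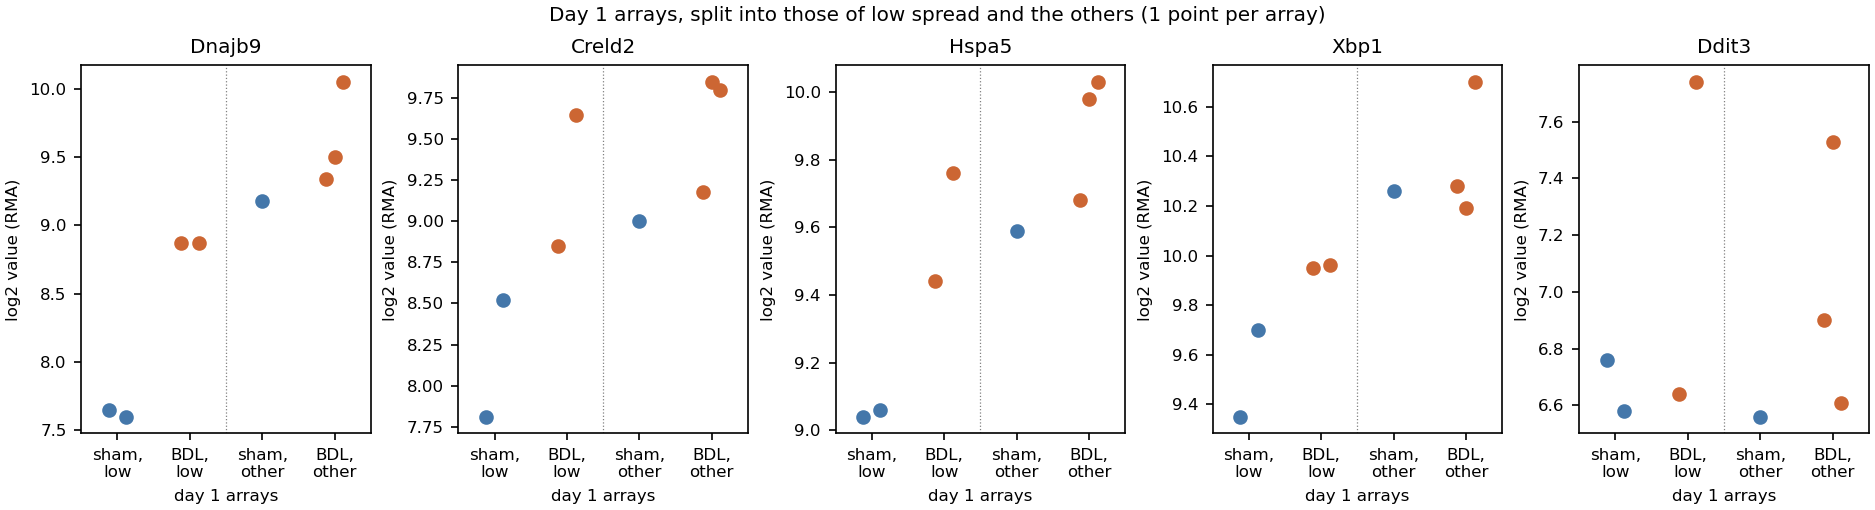
Log2 values of 5 of the genes on day 1, with the low-spread arrays to the left of the dotted line and the others to the right; each point is 1 array. Within the low-spread arrays both BDL values of Dnajb9 (8.87) lie above both sham values (7.60 and 7.65), and only 1 sham array lies outside the set.

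At day 3 no member differed between BDL and sham in limma at an adjusted p of 0.05, and none had an unadjusted p under 0.05, against 22.5% of all genes. Over all genes 6.47% were called higher and 3.69% lower. Differences ran from -0.40 ± 0.30 for Dnajb9 (adjusted p = 0.473) to 0.17 ± 0.20 for Chac1, with a median of -0.04. The sham group of this day had 2 mice, and their values lay well apart for Dnajb9 (8.92 and 9.66), Atf4 (7.56 and 8.30) and Xbp1 (9.60 and 10.36). The intervals were wide: -0.88 to 0.36 for Creld2, -0.44 to 0.36 for Hspa5 and -0.51 to 0.39 for Ddit3.

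Within the ligated livers, 4 members fell between day 1 and day 3, Creld2, Ddit3, Hspa5 and Atf4, and none rose. Over all genes 6.44% fell and 12% rose between these days. The median over the members was -0.44, against 0.01 over all genes. The comparison uses the same BDL arrays of day 1 as the comparison with sham above and is not independent of it. Whether the effect of ligation differed between days 1 and 3 was not tested.

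Creld2 stood at 8.59, 8.00, 8.63, 8.54 and 8.26 in BDL at day 3, below all 5 values of day 1. The change was -1.06 ± 0.23 (limma, adjusted p = 0.00209), to 0.479 times the level of day 1. Ddit3 stood at 6.44, 6.45, 6.52, 6.18 and 6.39, also below every value of day 1, and fell by 0.69 ± 0.17 (adjusted p = 0.00512). Arrays of the 2 days did not overlap in this direction for these 2 members, and for 3.95% of all genes. Hspa5 stood at 9.47, 9.0, 9.36, 9.29 and 9.10, with 1 array of day 3 above the lowest of day 1, and fell by 0.53 ± 0.15 (adjusted p = 0.0122). In all alternatives computed, the falls of Creld2, Ddit3 and Hspa5 kept their direction and passed, the version without the low-spread arrays included.

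Atf4 stood at 7.58, 7.64, 7.96, 7.90 and 8.24 at day 3, and its day 1 values overlapped with these through replicate 1 at 7.88. It fell by 0.45 ± 0.14 (limma, adjusted p = 0.0314). That call ended without the low-spread arrays (-0.42, limma, adjusted p = 0.130) and with a term for them (-0.43, adjusted p = 0.0909). The compared arrays alone did not give it either (adjusted p = 0.0808). Leaving out any of 6 single arrays also ended it: BDL day 1 replicate 2, 3 or 4, or BDL day 3 replicate 1, 2 or 4. Over these the adjusted p ran from 0.0519 to 0.102. Dnajb9 fell by 0.44 ± 0.23 (adjusted p = 0.178) over all arrays. With a term for the low-spread arrays it fell by 0.86 ± 0.16 (adjusted p = 0.00119), and without these arrays by 0.74 (adjusted p = 0.00556). Trib3 changed by -0.49 ± 0.19 (adjusted p = 0.0768). Herpud1, Xbp1, Asns and Chac1 changed by -0.04, -0.10, 0.31 and 0.09, and none of these passed.

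**Figure D3:**
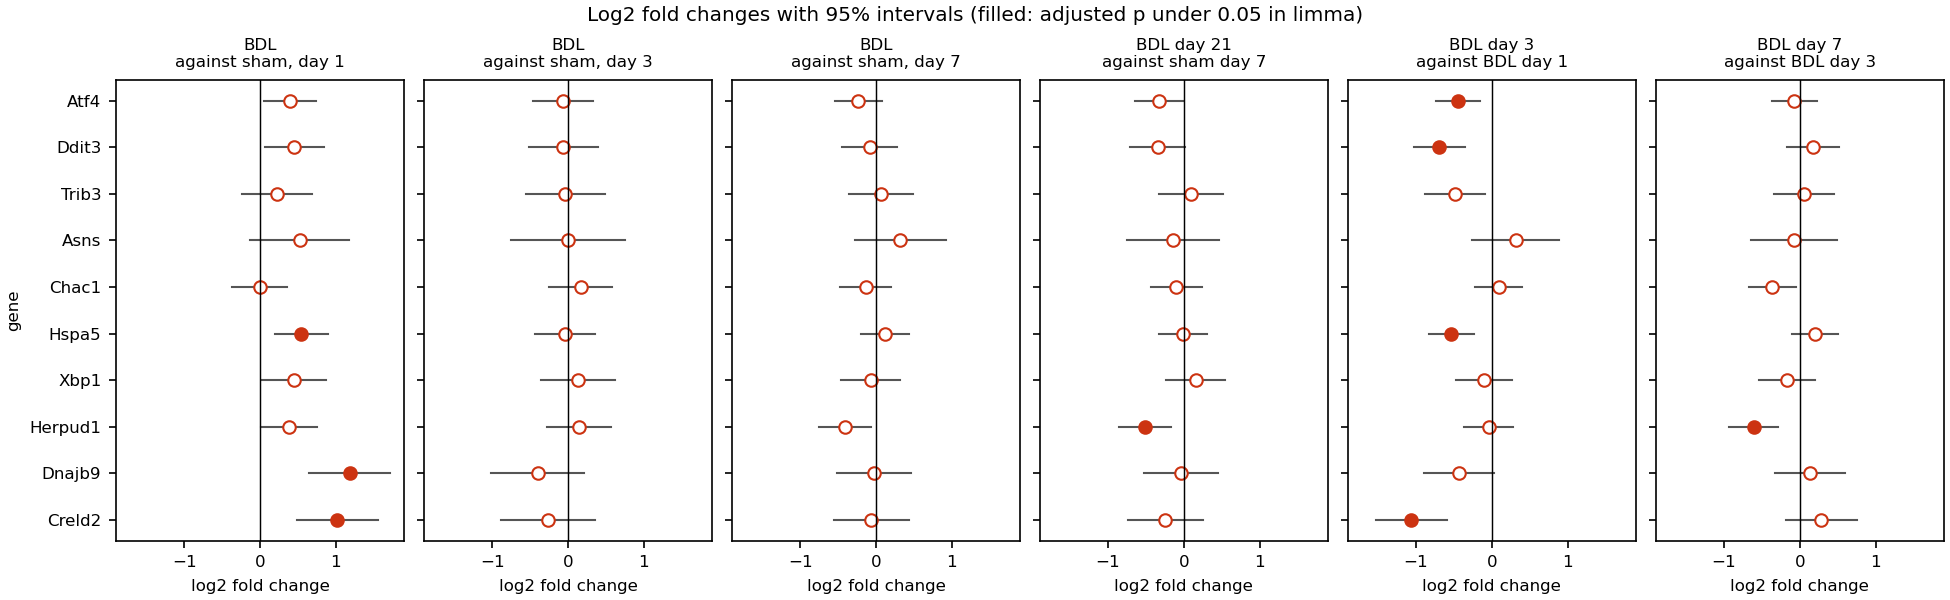
Log2 fold changes of the 10 genes with 95% confidence intervals in 6 comparisons, first-named group over the second; filled points have an adjusted p under 0.05 in limma. Filled points lie to the right of 0 at day 1 (Hspa5, Dnajb9, Creld2) and to the left for BDL day 3 over day 1 (Atf4, Ddit3, Hspa5, Creld2) and for Herpud1 at day 21 and from day 3 to day 7.

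At day 7 no member passed in limma against sham of the same day, where 14.2% of all genes were higher and 4.97% lower. Herpud1 alone had an unadjusted p under 0.05, against 30.5% of all genes. Its values were 11.33, 11.69, 11.72 and 11.32 in sham and 11.03, 10.93, 11.14, 11.34 and 11.10 in BDL. A single BDL array, replicate 4, lay above the lowest sham arrays, and the difference was -0.40 ± 0.17 (adjusted p = 0.0935). It was called lower with cyclic loess scaling (-0.45, adjusted p = 0.0430), against all 9 sham arrays (-0.37, adjusted p = 0.0418) and when the spread was taken from the compared groups alone (adjusted p = 0.0322). The other 9 members differed by -0.23 (Atf4) to 0.32 (Asns). The intervals were -0.20 to 0.43 for Hspa5, -0.52 to 0.46 for Dnajb9 and -0.56 to 0.44 for Creld2.

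From day 3 to day 7 within BDL, Herpud1 fell from 11.83, 11.50, 11.65, 11.59 and 11.99 to the values of day 7 given above, with no overlap. The change was -0.60 ± 0.16 (limma, adjusted p = 0.0199), to 0.658 times. Herpud1 was the only member called, and 1.10% of all genes fell and 4.60% rose between these days. The call ended on leaving out BDL day 3 replicate 1 or 5 or BDL day 7 replicate 2, with -0.53 to -0.58 and adjusted p values up to 0.0728. The arrays of Chac1 did not overlap either, with 6.15 to 6.49 at day 3 and 5.72 to 6.15 at day 7 (the values of 6.15 differ before rounding), but its change of -0.36 ± 0.15 did not pass (adjusted p = 0.179). Without overlap in this direction were 1.78% of all genes.

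At day 21 Herpud1 was lower than in sham at day 7 and was the only member called, beside 7.90% of all genes lower and 17.3% higher. Its 5 values at day 21 were 11.64, 10.74, 11.10, 10.52 and 10.99. Replicate 1 lay inside the sham range and the other 4 lay below it. The difference was -0.52 ± 0.17 (limma, adjusted p = 0.0224), or 0.700 times. It no longer passed without BDL day 21 replicate 2 or 4, without sham day 7 replicate 2 or 3 (-0.40 to -0.46, adjusted p = 0.0635 to 0.0881), or with the spread of the compared groups alone (adjusted p = 0.0693). The same sham arrays serve day 7 and day 21, so these comparisons are not independent. Ddit3 at day 21 was 6.55, 6.38, 6.19, 6.37 and 6.04, against 6.48, 6.76, 6.55 and 6.81 in sham, a difference of -0.34 ± 0.18 (adjusted p = 0.166). Atf4 differed by -0.33 ± 0.15 (adjusted p = 0.124). From day 7 to day 21 within BDL no member passed, and none had an unadjusted p under 0.05, against 8.15% of all genes; 0.401% of all genes rose and 0.463% fell.

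The effect of ligation at day 7 minus that at day 1 was tested in the same model. It passed for Dnajb9 alone, at -1.21 ± 0.35 (limma, adjusted p = 0.0461), where 0.857% of all genes were lower and 3.48% higher. Creld2 had -1.08 ± 0.36 (adjusted p = 0.0852), Herpud1 -0.79 ± 0.25 (adjusted p = 0.0684) and Atf4 -0.63 ± 0.23 (adjusted p = 0.117). Without the low-spread arrays the value for Dnajb9 was -0.48 (adjusted p = 0.481), and it also did not pass on leaving out most single arrays. Between sham groups no member was called, for day 1 against day 7 or day 3 against day 7. One member, Dnajb9, had an unadjusted p under 0.05 for day 1 (23.3% of all genes) and none for day 3 (4.27%). Over all genes 2.96% were lower and 1.15% higher in sham at day 1 than at day 7, and 0 genes were called for day 3.

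In the order of the 7 group means, neighbours seldom stood further apart than the larger of their SDs. This held at 1 of 6 steps for Creld2 and for Hspa5, the step from BDL at day 1 (9.47 ± 0.43 and 9.78 ± 0.24, SD, n = 5) to the group next below. It held at none for the other 8 members. Group means spanned from 0.36 for Chac1 to 1.19 for Dnajb9, and SDs within groups, pooled over the 7 groups, ran from 0.24 for Atf4 and Hspa5 to 0.48 for Asns.

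Genes around the members in these pathways were taken from lists chosen with earlier results of these data known. Counts below are of genes past an adjusted p of 0.05 in limma, to be read against 8.52% higher and 4.80% lower over all genes at day 1. Of 17 sensors and eIF2 regulators, 5 were higher and 0 lower at day 1. Eif2ak3, the gene of PERK itself, was higher by 0.95 ± 0.13, Atf6b, a relative of Atf6, by 0.68 ± 0.15 and Eif2b4, a subunit of the factor that recharges eIF2, by 0.54 ± 0.16. Of 22 genes of the translocon and of entry to the secretory path, 10 were higher and 0 lower, with a list median of 0.41. Spcs2, a signal peptidase subunit, was higher by 0.89, Srprb, a subunit of the signal recognition particle receptor, by 0.82 and Ssr2, a protein next to the translocon, by 0.77. Of 21 ER chaperones and folding enzymes, 5 were higher and 0 lower, led by the disulfide reductase gene Dnajc10 (0.97 ± 0.15), the oxidase gene Ero1a (0.89 ± 0.20) and Manf (0.79 ± 0.18), an ER stress-induced secreted factor. Of 18 genes of ER-associated degradation, 3 were higher: Edem2 (0.66), Edem3 (0.62) and Selenos (0.52).

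Among the ATF4 targets with regulatory and stress roles, 6 of 15 tested were higher at day 1 and 0 lower. Ddit4, an inhibitor of mTORC1, was higher by 1.41 ± 0.37, the transcription factor gene Atf3 by 1.37 ± 0.24 and Fgf21, a liver hormone of fasting and stress, by 1.02 ± 0.20. Of 13 genes of amino acid synthesis and transport, 2 were higher, Mthfd2 by 0.77 and Psat1 by 0.76, and the lower group mean of each was under 5, the level of the filter. Of 16 aminoacyl-tRNA synthetase genes 3 were higher, Vars by 0.93, Gars by 0.72 and Rars by 0.39. Of 9 mitochondrial chaperones and proteases, Dnaja3 was higher (0.43) and Hspd1 lower (-0.34), and 2 further rows of Dnaja3 gave values below 0 (-0.35 and -0.06). Of 11 cytosolic heat shock genes 2 were higher, Hspa4l by 0.51 and Bag3 by 0.50. Without the low-spread arrays, when 1.99% of all genes were higher, the counts of higher genes at day 1 were 2 for sensors, 1 for the translocon list, 2 for chaperones, 0 for degradation and 2 for the regulatory targets. With a term for these arrays they were 5, 10, 5, 3 and 6, as in the main fit. The share over all genes with that term is not given here, so these counts have no background. Under loess scaling 1 sensor gene was lower, beside 1020 of all 14699 genes.

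From day 1 to day 3 within BDL, ER chaperones fell at 12 of 21 genes and rose at 0, where 6.44% of all genes fell. By size, named after the counts were seen, came Hyou1, an ER chaperone that works with BiP, which fell by 1.27 ± 0.23 (limma, adjusted p = 0.000467), Sdf2l1, which fell by 0.88 ± 0.25, and Manf, which fell by 0.82 ± 0.15. Of the degradation genes 6 of 18 fell, led by Derl3 (-0.99), Syvn1 (-0.69) and Selenos (-0.64). Of the translocon list 6 of 22 fell, led by Srp14 (-0.64), Sec23b (-0.61) and Srprb (-0.58). Without the low-spread arrays, when 4.29% of all genes fell, the counts were 14, 7 and 7. Of the regulatory ATF4 targets 6 of 15 fell, among them Atf5 (-1.23), Fgf21 (-1.06) and Atf3 (-0.71). Of 13 amino acid genes 3 rose and 1 fell: Cth, the cystathionine gamma-lyase gene, rose by 1.23, and the transporter genes Slc1a5 and Slc3a2 by 0.52 and 0.51. Of the sensors 4 rose and 4 fell. Of the cytosolic heat shock genes 0 of 11 passed, and of the mitochondrial list 4 of 9 fell. Over all genes 12% rose. Without the low-spread arrays, when 5.54% of all genes rose and 4.29% fell, 5 regulatory targets fell, 1 amino acid gene rose and 0 fell, 0 sensors rose and 3 fell, and 2 mitochondrial genes fell. Under loess scaling 4 sensors rose and 8 fell, beside 1642 of all 14699 genes that rose and 1263 that fell.

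In the later comparisons the counts are to be read against 6.47% of all genes higher and 3.69% lower at day 3, 14.2% and 4.97% at day 7, and 17.3% and 7.90% at day 21. Chaperones had 1 higher at day 3, 2 at day 7, and 3 higher with 1 lower at day 21. Dnajc10 was higher each time, by 0.63, 0.79 and 0.94. Degradation genes had 1, 1 and 3 higher. The regulatory ATF4 targets had 2 higher and 1 lower at day 3, 6 and 1 at day 7, and 7 and 1 at day 21. Atf3 was higher by 1.46 and the death receptor gene Tnfrsf10b by 1.45 at day 7, and Ddit4 was higher by 1.35 and Ndrg1 by 1.08 at day 21. A second row of Ndrg1, of lower mean, gave 0.02 at day 21. Amino acid genes had 5 higher and 0 lower at day 7 and 6 higher and 1 lower at day 21. Among them the transporter gene Slc1a4 was higher by 1.24 and the proline synthesis gene Aldh18a1 by 1.11 at day 7 (the lowest group mean of Aldh18a1 and of Tnfrsf10b was under 5), while the transporter gene Slc38a2 differed by -0.94 at day 21. Synthetases had 4 higher at day 7 and 4 higher with 1 lower at day 21. Of 22 translocon genes 1, 0 and 1 were higher at days 3, 7 and 21, and 0 were lower. Of 17 sensors and eIF2 regulators 0 passed at day 3. At day 7, 2 of them were higher and 1 lower, and at day 21, 1 was higher and 1 lower. Eif2ak3 was higher by 0.58 at day 7 and by 0.61 at day 21. Ppp1r15b, which directs the dephosphorylation of eIF2, differed by -0.31 and -0.58, both lower in BDL.

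**Figure D4:**
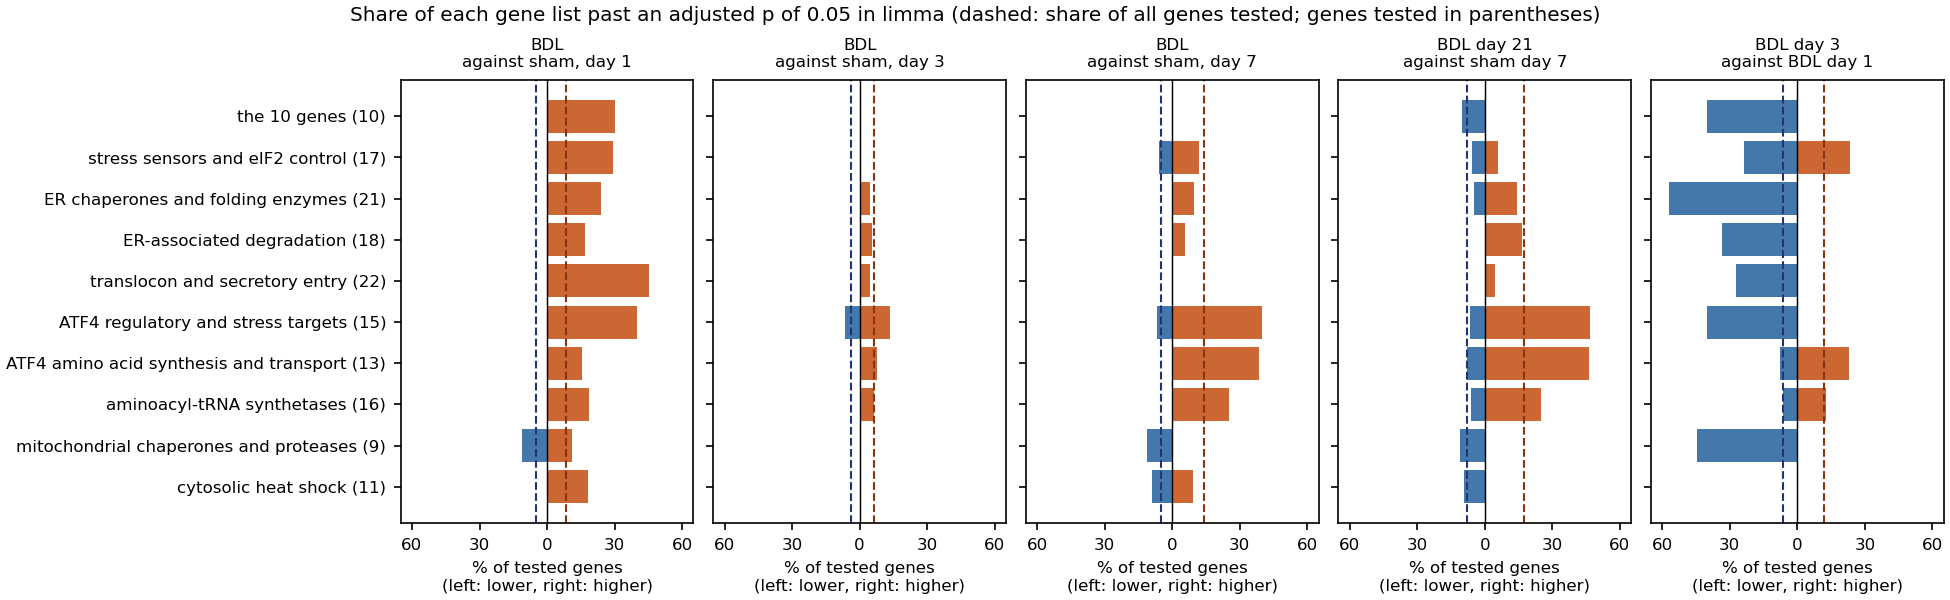
Share of each gene list past an adjusted p of 0.05 in limma, in percent of its tested genes (number in parentheses), with higher genes to the right and lower genes to the left; dashed lines give the shares over all genes tested. At day 1 the bars lie to the right for the ER lists, with 10 of 22 for the translocon, and from day 1 to day 3 of BDL they lie to the left, with 12 of 21 for chaperones.

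Cell type markers moved over the same days. At day 1, 5 of 8 tested neutrophil markers were higher, and the mean of the 10 measured was 5.07 to 5.70 in BDL against 4.51 to 4.71 in sham. Of 12 macrophage markers 4 were higher at that day and 1 lower. The largest changes were in Itgam, higher by 1.36, Cd68 by 1.01 and Ccr2 by 0.80, whose lowest group mean was 4.35. The mean of the 12 macrophage markers overlapped at day 1, with 6.69 to 7.54 in BDL and 6.56 to 7.12 in sham. Of 9 cholangiocyte markers 2 were higher, Sox9 by 1.46 and Cd24a by 0.70, and of 12 myofibroblast markers 1 was. A second row of Cd24a, of lower mean, gave -0.13. From day 1 to day 3, 2 neutrophil markers fell and 9 of 12 macrophage, 9 of 12 myofibroblast and 5 of 9 cholangiocyte markers rose. At day 7 and at day 21, 12 of 12 macrophage, 11 of 12 myofibroblast and 9 of 9 cholangiocyte markers were higher than in sham at day 7, and the mean over the macrophage list was 8.16 to 8.61 in BDL at day 7 against 6.81 to 7.18 in sham. The part of these shifts in the values of the members was not tested. Plasma cells also express Xbp1, Hspa5, Creld2 and Herpud1 strongly. Of 9 plasma cell markers 4 (Tnfrsf17, Pou2af1, Irf4 and Tnfrsf13b) were not above the filter, and the mean of the list was 4.88 to 5.09 in BDL at day 1 against 5.03 to 5.15 in sham at day 1. It was 5.24 to 5.37 in BDL at day 21 against 4.96 to 5.17 in sham at day 7. Sdc1, which epithelial cells also express, was called higher at day 1 (by 0.42), day 3 (0.99), day 7 (0.92) and day 21 (0.99), and Jchain, the antibody joining chain gene, at day 21 (1.37). Their part in the values of the members was not tested. Of 10 exocrine pancreas markers measured, 7 were not above the filter and 0 of the other 3 were called.

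Beside the group means, the members varied from mouse to mouse. Pearson's r of deviations from the group means, over 29 arrays, is given as a description, since arrays share processing and the low-spread set. Hspa5 and Creld2 had r = 0.77, Hspa5 and Dnajb9 0.76, and Xbp1 and Dnajb9 0.68. The median over the 10 pairs within the ER arm was 0.52, with a range from -0.27 (Herpud1 and Creld2) to 0.77. It was 0.38 with the low-spread set removed as a term and 0.37 without these 4 arrays. The 10 pairs of the ATF4 arm had a median of 0.08, the highest being Atf4 and Ddit3 at 0.41. The 25 pairs between the arms had a median of 0.10. Herpud1 differed from the rest of the ER arm in this, with r between -0.27 and 0.06 to the other 4.

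**Figure D5:**
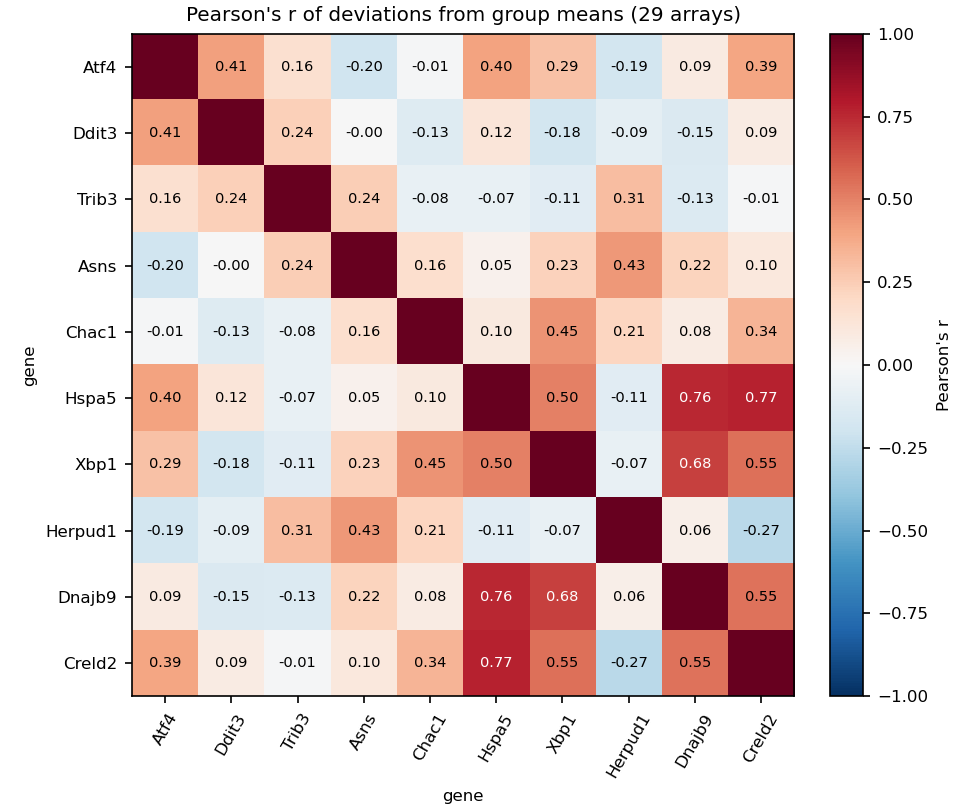
Pearson's r between the 10 genes over 29 arrays after each gene's group means were subtracted, on a scale from -1 (blue) to 1 (red), with the values printed. Hspa5, Xbp1, Dnajb9 and Creld2 form a block with r from 0.50 to 0.77, and Herpud1 lies outside it.

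Across the 29 arrays as a whole, group differences included, the tested genes most like each member were as follows by Pearson's r, as a description. Hspa5 went with Sec23b, a coat protein gene of vesicles leaving the ER (0.902), and Uso1, a vesicle tethering factor gene (0.872). Creld2 went with Manf (0.886) and Hyou1 (0.885). Dnajb9 went with Edem3 (0.873) and Tmem39a (0.846). On ranks the values for Dnajb9 were lower, with Spearman's rho of 0.698 and 0.676. The lowest Dnajb9 values were from low-spread sham arrays, and their part in r was not tested. Atf4 went with Sec22b (0.808) and Mcts2 (0.765), Ddit3 with Mrpl24 (0.851) and Hinfp (0.808), and Xbp1 with Fkbp2 (0.791) and Bysl (0.775). Herpud1 went with Gne (0.824) and Fbxo31 (0.792). The values were lower for Chac1 with Gadd45g (0.732) and Ptpn3 (0.676), Asns with Tmem41a (0.683) and Eef1b2 (0.679), and Trib3 with Dmbx1 (0.672) and Camk2g (0.664).

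Genes sharing the members' promoter elements were counted across the array as well. Of 49 genes with either ER stress element in their window, 28 were tested. At day 1, 4 of them were higher and 0 lower, with a median of 0.20, beside 8.52% of all genes higher and 4.80% lower. From day 1 to day 3 of BDL 11 fell and 0 rose, with a median of -0.27, beside 6.44% of all genes that fell and 12% that rose. Without the 3 members that carry an element, 9 of 25 fell. Of the 16 tested genes with an element that were neither members nor in any list, 2 fell and the median was 0.00, so most of the falls were of genes already listed above. Of 346 tested genes with the C/EBP-ATF core, 34 were higher and 19 lower at day 1 with a median of 0.00, and 40 rose and 16 fell from day 1 to day 3. Of the members that carry the core, Asns, Chac1 and Trib3 did not pass in any of the 10 comparisons fitted on all arrays. Herpud1, which carries the core and the second ER element, was called lower from day 3 to day 7 of BDL and at day 21.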

How the data were processed

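Liver RNA of 29 mice was hybridised to Affymetrix arrays. The deposited values are log2 expression values made with RMA in oligo 1.52.0, per the submitters' processing notes. RMA brings arrays to a shared distribution. The sources used here do not say whether all arrays went through it jointly, and give no genome build. Names came from the annotation of Mouse Gene 2.0 ST, whose identifiers the rows carry, although the protocol in the labels describes a different Affymetrix mouse design.

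Of 41345 rows, 23521 had 1 gene symbol, 1814 several and 16010 none. A RefSeq table (assembly GRCm38.p6) gave current symbols for 23328 of the rows with 1 symbol. The row of highest mean stood for a gene, and genes above 5 in at least 3 arrays were tested. The members are reported in every comparison. Named from each other list were up to 3 called genes of largest change per comparison of BDL with sham (and, chosen after the counts were seen, BDL day 3 against day 1), and the 2 genes most like each member by Pearson's r. The members and lists were chosen with earlier results of these data known. List genes without a named row were not analysed here.

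Group means were fitted to all 29 arrays in limma 3.58.1 (lmFit, eBayes; R 4.3.3), two-sided, with Benjamini-Hochberg adjustment over 14699 genes and a threshold of 0.05. Titles give each array its own animal number, so the spread behind a p-value is that between arrays of different mice. In the main fit it includes the shift of the low-spread arrays. Replicate numbers here only name arrays. Array number limits the precision. In simulated data with 200 of 14699 genes changed, a log2 change of 0.5 was called for 38.8% at day 1, 17.9% at day 3, 40.3% at day 7 and 46.3% at day 21. A change of 1 was called for 94.0%, 89.6%, 91.0% and 94.0%. The changed genes were drawn from all genes tested, so these are not rates for the members. Fewer genes changed there than were called in the data, and the noise held no effect shared by the low-spread arrays. Alternatives were filters, mean of rows, loess scaling, robust variance, compared arrays alone, 9 pooled shams, the low-spread arrays as a term or left out, and each array left out. Fitting the low-spread arrays of day 1 alone was added after seeing the data. Promoters came from RefSeq.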

Additional observations from a re-analysis of the deposited data

Results flagged for a closer look

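Within groups of 4 or 5 mice, 5 single arrays stood apart from their group by Dixon's test among 50 sets of values tested, 1 per gene and group, where chance gives about 1 in 20. Ddit3 was 6.78 in BDL day 7 replicate 2, against 6.48 to 6.54 in the other arrays of the group. Chac1 was 6.15 in BDL day 3 replicate 2 (others 6.41 to 6.49) and 5.72 in BDL day 7 replicate 1 (others 6.05 to 6.15). Herpud1 was 11.94 in BDL day 1 replicate 5 (others 11.67 to 11.74). Dnajb9 was 8.80 in BDL day 21 replicate 1 (others 9.06 to 9.13). Each of these arrays stood apart for a single member.

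The effect of ligation on Dnajb9 differed between day 7 and day 1 by -1.21 ± 0.35 on the log2 scale (limma interaction term, adjusted p = 0.0461). Over the alternatives computed, the value ran from -1.73 to -0.48 and the adjusted p from 0.00226 to 0.481. The weakest was without the low-spread arrays.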

How the results depend on the processing

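Over 1780 recomputed values, 1708 stayed on the same side of the threshold, 49 calls were lost, 23 were gained and 0 called values reversed. Another 108 changed sign where neither version was called. The number of members changed at day 1 (3) was 0 with the compared arrays alone, 0 without the low-spread arrays and 1 within them alone. At day 7 it was 1 instead of 0 with loess scaling, with the compared arrays alone and with 9 shams as controls. For sham day 1 against day 7 it was 1 under the stricter filter, a log2 value of 6, instead of 0. For the effect at day 7 minus day 1 it was 0 without a filter, with the compared arrays alone and without the low-spread arrays, and 2 with loess, instead of 1. Leaving out single arrays gave 1 to 4 at day 1, 0 to 1 at day 21, 3 to 5 for BDL day 3 against day 1, 0 to 1 for BDL day 7 against day 3, 0 to 1 for sham day 1 against day 7 and 0 to 3 for the effect at day 7 minus day 1. It gave 0 throughout for days 3 and 7 against sham, BDL day 21 against day 7 and sham day 3. The cause of these changes was not tested, except that leaving arrays out leaves fewer samples.

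Loess scaling moved the share of higher genes among all called genes from 63.9% to 52.0% at day 1, from 74.1% to 61.9% at day 7, from 68.6% to 58.4% at day 21, from 80.8% to 67.5% for BDL day 7 against day 3 and from 28.0% to 45.2% for sham day 1 against day 7. The median of all genes moved by less than 0.05 in each comparison.

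No paired analysis was possible because the labels give each mouse its own animal number and no number shared between groups. Limits are the 2 sham mice at day 3, the missing sham group at day 21 and the single sham array of day 1 outside the low-spread set. Gene-level RNA values say nothing of Xbp1 splicing, phosphorylation or translation.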
